A study of Oryza sativa Japonica Group with 10 samples.

Results

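CAT-A and CAT-B are 2 catalase genes of rice, and they were described here across the 5 groups of a phosphate starvation time course. They were found by symbol or synonym in the gene table behind the array's annotation, with the identifiers LOC4328073 for CAT-A and LOC4342124 for CAT-B. Of the 17905 genes that the array names through probe sets with a single gene, these 2 were taken, with all their probe sets, 3 for CAT-A and 5 for CAT-B, 8 of 57381 in all. All 8 passed the filter on low signals. Both genes had been selected on their low signals at 24 h, and CAT-B also on 1 probe set that was low at 72 h. Their values are therefore given as a description, as log2 changes ± SE from the fit across all probe sets, with no test. The probe sets of each gene are lettered by mean signal over the 10 arrays, from the brightest, CAT-A sets a to c and CAT-B sets a to e, and the plots give their array names. Another catalase name, CAT-C, was not matched by symbol or synonym and was not analysed here.

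The samples were seedlings of Oryza sativa Japonica Group, cultivar Zhonghua 10, aged 1 week. The control group was grown with sufficient phosphate (Pi), and the other groups were kept in Pi-deficient solution for 6, 24, 48 or 72 h. Each group had 2 arrays, labelled as biological replicates, so every group mean has n = 2, and the number of arrays limits the precision of each value. The control was a single group that served all 4 comparisons, so the comparisons share its 2 arrays, and low phosphate cannot be told apart from seedling age or hour of harvest. The labels name no transgene or mutant.

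Catalases are heme enzymes of peroxisomes that split hydrogen peroxide into water and oxygen without needing a reducing partner. In leaves much of that peroxide is made by glycolate oxidase during photorespiration, and in germinating seedlings it is also made when stored fatty acids are broken down. Ascorbate peroxidases and peroxiredoxins remove hydrogen peroxide in other compartments and draw on ascorbate, thioredoxin or glutathione. In Arabidopsis and maize, transcripts of some catalase genes are known to follow light and the circadian clock.

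The signals came already scaled, with the same trimmed mean on all 10 arrays. The median signal of the arrays was 47.6 to 54.2 in the control and at 6, 24 and 48 h, and 68.5 and 69.3 at 72 h. Across all probe sets tested, the median log2 changes from control were 0.043, 0.038, 0.107 and 0.163 in order of time. Log2 signals correlated at r = 0.91 to 0.938 within a group (5 pairs) and at 0.881 to 0.921 between groups (40 pairs). The 72 h arrays stood apart in the control probe sets that read the 5′ end of a transcript. The log2 ratio of the 3′ to the 5′ probe set of actin was 2.04 ± 0.03 (SD) in the control and 6.10 ± 1.07 at 72 h, and that of Gapdh was 1.75 ± 0.20 and 5.10 ± 0.53.

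CAT-A was lower than in the control at all 4 times, in all 3 probe sets, with no overlap between groups. It was lowest at 24 h, stood at 69.9% to 85.5% of the control mean at 48 h, and was lower once more at 72 h. The brightest probe set, set a, read 12862 and 13272 in the control and 1086 and 1173 (24 h). On the other arrays set a read 10746 and 11565 (6 h), 9300 and 9741 (48 h), and 4233 and 4380 (72 h). Both arrays of each group lay together, and no value of one group fell within the range of another.

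In percent of the control mean, CAT-A set a stood at 85.3%, 8.64%, 72.9% and 33.0% after 6, 24, 48 and 72 h. The 24 h mean was 11.6-fold lower than the control mean, and the 72 h mean 3.03-fold lower. Some 5′ control probe sets were low on the 72 h arrays, and the part of this in the CAT-A value was not tested. On the log2 scale the changes from control were -0.23, -3.53, -0.46 and -1.60 in the same order, each ± 0.06 (SE). Among the 34355 probe sets tested, 124 (0.361%) had as large a fall at 24 h, and 1477 (4.30%) at 72 h. Relative to the median of all probe sets, the CAT-A change was -3.57 at 24 h and -1.76 at 72 h.

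The other CAT-A probe sets followed the same course. Set b read 12156 and 12288 in the control, 10184 and 10210 (6 h), 857 and 944 (24 h), 8487 and 8598 (48 h), and 3646 and 4168 (72 h). Its mean at 24 h was 13.6-fold lower than in the control, with a log2 change of -3.76 ± 0.07 (SE). Set c was dimmer, with 3282 and 3037 in the control, 2678 and 2919 (6 h), 140 and 203 (24 h), 2575 and 2830 (48 h), and 699 and 657 (72 h). The dimmer set had the larger changes, -4.23 ± 0.14 at 24 h and -2.22 ± 0.14 at 72 h, and its 24 h mean was 18.4-fold lower than its control mean. On this set alone the 6 h and 48 h arrays overlapped each other.

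The 3 CAT-A probe sets correlated at r = 0.988 to 0.999 over the 10 arrays, which share their scaling and labelling. Their changes spanned 0.086, 0.692, 0.291 and 0.619 log2 units at the 4 times. Over the 498 genes with at least 3 probe sets, the median span was 0.758, 0.834, 0.656 and 1.07 in the same order. The CAT-A sets thus lay closer together than those of the median gene at every time. Some of the 498 genes have more than 3 sets, and a span can only widen as sets are added, so this comparison favours CAT-A. For background, 31.9%, 31.1%, 27.0% and 27.9% of all probe sets tested were lower than control without overlap at the 4 times. All 3 CAT-A sets were more than 2-fold lower at 24 h and at 72 h, where 10.1% and 8.55% of all probe sets were. These contrasts chose the gene, so the shares are given for scale only.

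**Figure D1:**
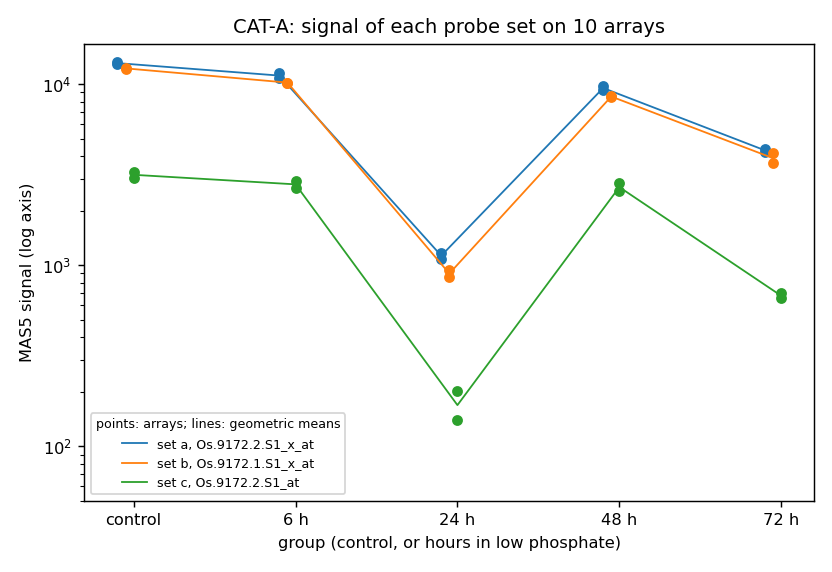
MAS5 signal (log axis) of the 3 CAT-A probe sets on each of the 10 arrays by group. Points are single arrays and lines join the geometric mean of each group. All 3 probe sets are lowest at 24 h, where the brightest reads 1086 and 1173, and lie between their control and 24 h levels at 72 h.

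CAT-B behaved differently from one probe set to the next. The 2 brightest sets were lowest at 24 h, as CAT-A was, but only by 1.79-fold and 2.70-fold. Another set was lowest at 72 h, where it was 23.1-fold lower than in the control while the bright sets stood at 85.3% and 88.3% of their control means. The remaining pair of sets was above the control at 6, 48 and 72 h.

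The brightest CAT-B set, set a, read 17721 and 18040 in the control, 17289 and 17190 (6 h), 9941 and 10029 (24 h), 16706 and 15947 (48 h), and 15122 and 15395 (72 h). All treated arrays lay below both control arrays, and the 24 h arrays lay far below the rest. Its log2 changes were -0.053, -0.84, -0.13 and -0.23 at the 4 times, each ± 0.04 (SE). The directions at 6 and 48 h depend on the scaling, since quantile normalization turned them to 0.12 and 0.22. At 24 h the quantile value was -0.64. The 72 h value was -0.015 with quantile normalization and -0.73 with median centring.

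Set b, which was about as bright, read 18481 and 18710 in the control, 14101 and 12799 (6 h), 7141 and 6614 (24 h), 14466 and 13446 (48 h), and 16101 and 16735 (72 h). Here too the control arrays were the highest and the 24 h arrays the lowest. The changes were -0.47, -1.44, -0.42 and -0.18 at the 4 times in order, each ± 0.06 (SE). The 24 h mean was 37.0% of the control mean. Its 6 and 48 h arrays overlapped each other. With quantile normalization the 72 h change was 0.033.

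Set c read 2493 and 2243 in the control, 2655 and 2553 (6 h), 1654 and 2135 (24 h), 3865 and 5220 (48 h), and 2834 and 3388 (72 h). It was highest at 48 h, where its mean was 190.0% of the control mean, and below the control at 24 h alone. The changes were 0.14, -0.33, 0.93 and 0.39 at the 4 times, each ± 0.14 (SE). With each array centred on its median, the 72 h change was -0.11. Set e, the dimmest, read 424 and 301 in the control, 459 and 499 (6 h), 351 and 399 (24 h), 522 and 501 (48 h), and 527 and 498 (72 h). Its changes were 0.42, 0.066, 0.52 and 0.52, each ± 0.16 (SE), and its 24 h arrays overlapped the control arrays, which were themselves far apart.

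Set d was the one that was low at 72 h. It read 2520 and 3278 in the control, 561 and 415 (6 h), 1577 and 1862 (24 h), 1817 and 2048 (48 h), and 137 and 114 (72 h). Low values occurred at both 6 h and 72 h, and the 24 and 48 h arrays overlapped each other below the control. The changes were -2.57, -0.75, -0.58 and -4.52, each ± 0.17 (SE), and the mean was 5.94-fold lower than the control at 6 h. Among the 34355 probe sets tested, 259 fell as far at 6 h and 49 at 72 h. The 72 h value was used to choose the gene, so that count is given for scale only.

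**Figure D2:**
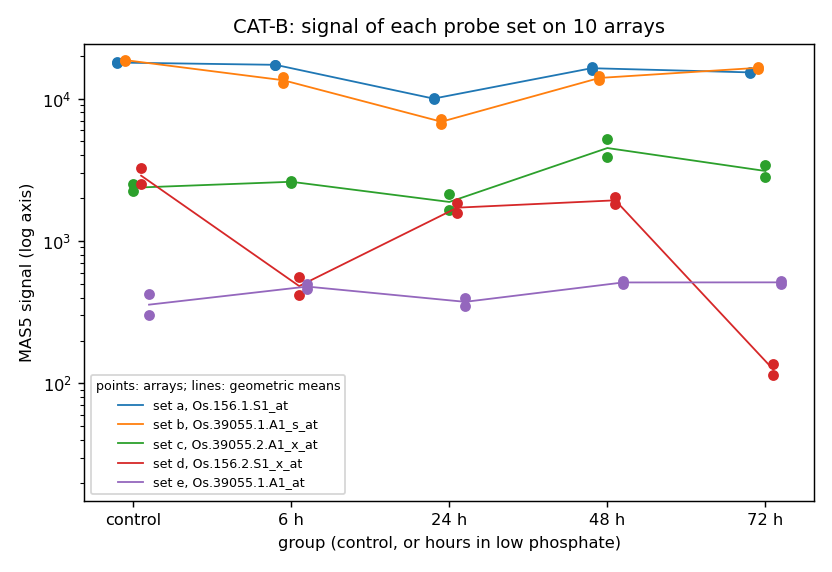
MAS5 signal (log axis) of the 5 CAT-B probe sets on each of the 10 arrays by group. Points are single arrays and lines join the geometric mean of each group. The 2 brightest sets dip at 24 h, whereas set d drops at 6 h and to 137 and 114 (72 h).

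In the CAT-B count, 3 sets were lower and 2 higher than the control without overlap at 6, 48 and 72 h, and at 24 h 4 were lower, none higher and 1 overlapping. Over all probe sets tested, 35.3%, 34.8%, 39.6% and 43.0% were higher without overlap at the 4 times, beside the shares of lower sets given for CAT-A. More than 2-fold lower were set d at 6 h, where 7.72% of all probe sets were, set b at 24 h and set d at 72 h. None was so at 48 h, where 6.24% of all probe sets were. No catalase set was more than 2-fold higher at any time, against 9.48%, 10.9%, 7.86% and 13.7% of all probe sets.

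The CAT-B changes spanned 2.997, 1.502, 1.501 and 5.04 log2 units at the 4 times. Of the 498 genes with at least 3 probe sets, 3.61%, 21.5%, 10.2% and 2.01% spanned as much in the same order, CAT-B included. Among the 27 genes with at least 5 probe sets, as CAT-B has, the shares were 18.5%, 37.0%, 22.2% and 7.41%. At 72 h that is 2 genes, CAT-B being one of them. The low 72 h value of set d was used to choose the gene, so the 72 h shares are given for scale only. Over the 10 arrays set d correlated at r = -0.588 to -0.093 with the other CAT-B sets, whereas the 2 bright sets correlated at 0.921 with each other. CAT-A sets a and b and CAT-B sets b, c and d carry the array maker's suffix for probes that can match more than 1 transcript. Which part of the CAT-B transcript each set reads, and whether any set reads another catalase, was not tested.

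Some 5′ control probe sets were low on the same arrays as CAT-B set d, 4 of 7 at 72 h and chiefly dap and thr at 6 h. The array carries end-specific sets for bacterial transcripts, among them dap and thr, that can be added to the RNA before labelling. The 5′ set of dap read 4975 and 5738 in the control, 1061 and 992 (6 h), 6200 and 6561 (24 h), 3020 and 3314 (48 h), and 336 and 186 (72 h). Its changes of -2.38, 0.26, -0.76 and -4.42 stand beside -2.57, -0.75, -0.58 and -4.52 for CAT-B set d. The 3′ set of dap changed by -0.48 at 6 h and 0.032 at 72 h.

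The 5′ set of thr changed by -3.01 at 6 h and -3.26 at 72 h. For Gapdh the 5′ changes at these times were -0.67 and -3.39, and for actin -0.38 and -3.50. At 48 h the 5′ set of thr changed by -2.115, that of Gapdh by 0.001 and that of actin by -0.05, beside -0.58 for CAT-B set d. The 5′ sets of cyclophilin, lys and phe were less affected at 72 h, with -0.27, -0.56 and -0.44. The part of these shifts in the low CAT-B value at 6 and 72 h was not tested, nor was their part in the 72 h fall of CAT-A. At 24 h, when CAT-A and the bright CAT-B sets were lowest, the 5′ sets of dap, thr, actin and cyclophilin changed by 0.26, 0.33, 1.03 and 0.79, and those of Gapdh, lys and phe by -0.16, -0.23 and -0.025.

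**Figure D3:**
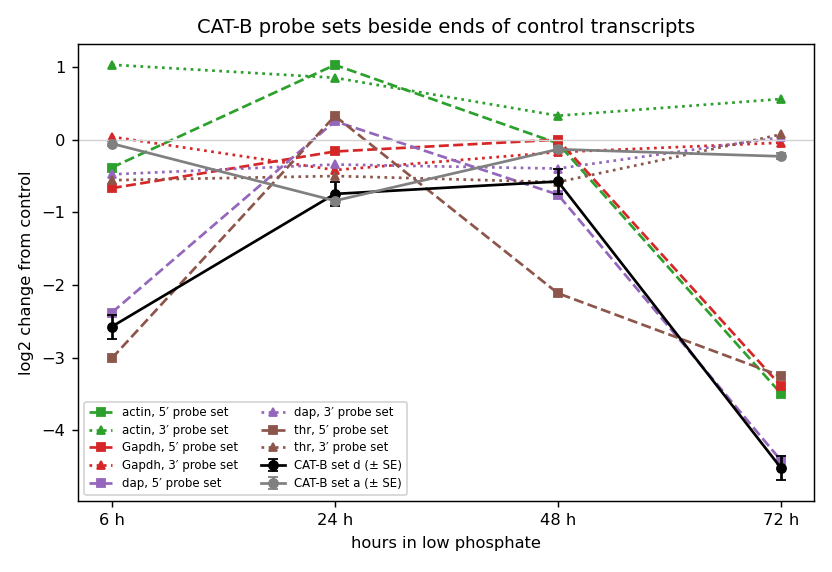
Log2 change from control against hours in low phosphate, for 2 CAT-B probe sets (bars are SE) and for the 5′ and 3′ probe sets of 4 of the 7 control transcripts with such ends. Set d and these 5′ sets are low at 72 h (-4.52 for set d, -4.42 for dap), while set a (-0.23) and the 3′ sets lie much nearer to 0.

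By group mean, the brightest probe sets of both genes had the same order of levels, with the control highest, then 6 h, 48 h, 72 h and 24 h. All neighbours in that order were free of overlap for both sets, but for CAT-B the first 4 groups spanned only 0.23 log2 units. Of the 34355 probe sets tested, 272 (0.792%) had this order, and 25.4% had their lowest mean at 24 h. Both genes had been chosen on their low 24 h signals, so these shares are given for scale only. The second bright CAT-B set had another order, with 72 h directly after the control. The order shared by the brightest sets depends on the scaling. With quantile normalization CAT-A kept it, but CAT-B did not. The CAT-B changes from control were then 0.12 (6 h), -0.64 (24 h), 0.22 (48 h) and -0.015 (72 h), with 6 and 48 h above the control. The brightest sets of CAT-A and CAT-B correlated at r = 0.977 over the 10 arrays, and CAT-A with the second bright CAT-B set at 0.839.

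Both genes were lowest at 24 h on their brightest sets, CAT-A by the larger change. The CAT-A change minus the CAT-B change, on the brightest sets, was -0.18, -2.69, -0.33 and -1.37 in order of time, each ± 0.07 (SE). This SE combines those of both sets as if they were independent, although they were read on the same arrays. MAS5 signals of different probe sets are not on a common scale, so the levels of CAT-A and CAT-B were not compared.

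**Figure D4:**
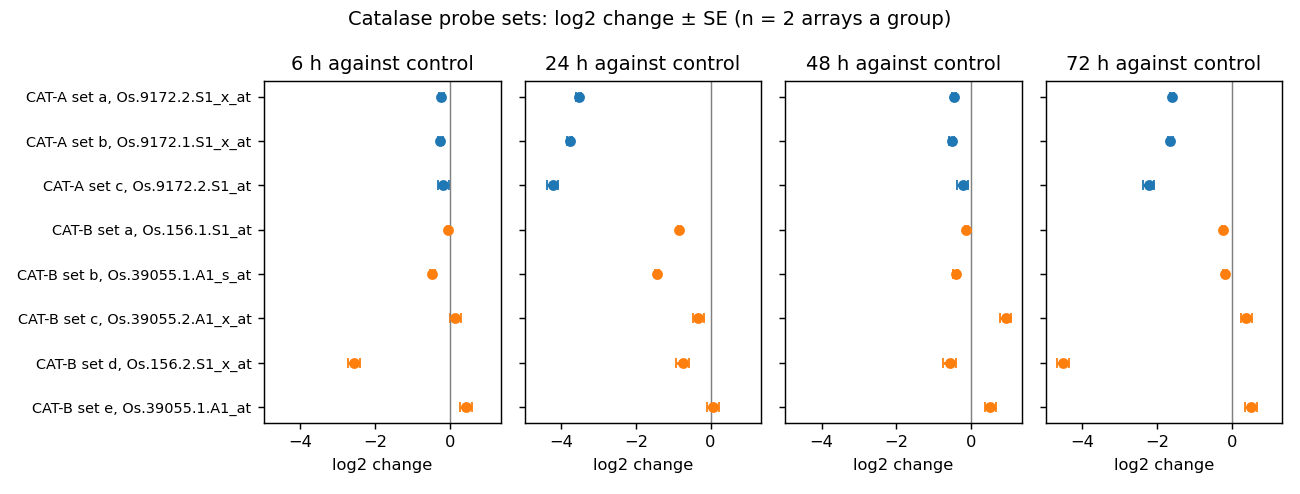
Log2 change from control of the 8 catalase probe sets at each time, with points for the fitted change and bars for its SE (n = 2 arrays a group). CAT-A sets lie together at every time, from -4.23 to -3.53 at 24 h, whereas CAT-B sets spread from -4.52 to 0.52 at 72 h.

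Among 2236 named genes with a probe set of their own that passed the filter, the 5 with the course most like CAT-A had r = 0.978 to 0.984 over the 10 arrays. They were OsCIPK07, a CBL-interacting protein kinase, OsPDIL1-1, a protein disulfide isomerase, OsCDPK24, a calcium-dependent protein kinase, CAB2R, a chlorophyll a/b binding protein of the light-harvesting antenna, and OsPYL11 of the abscisic acid receptor family. Most like CAT-B were CAB2R at r = 0.999, OsCIN7, an invertase, at 0.995, PSK5, a phytosulfokine precursor, at 0.991, cbp31 at 0.99 and OsCIPK07 at 0.988. CAB2R and OsCIPK07 were in both sets. These values describe 10 arrays in 5 groups that share scaling and labelling.

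The sizes differed among these genes. CAB2R changed by -0.23, -3.22, -0.49 and -0.96 at the 4 times, against -0.23, -3.53, -0.46 and -1.60 for CAT-A. The OsCIPK07 changes were 0.098, -1.55, -0.12 and -0.45, and those of OsCIN7 were -0.035, -2.45, -0.18 and -0.56. PSK5, most similar in size to CAT-B, changed by -0.13, -0.99, -0.15 and -0.20.

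Other genes that make or remove hydrogen peroxide moved in both directions. Of 38 listed genes, 34 were measured on probe sets of their own, and each was taken at its brightest. The numbers that rose were 14, 16, 10 and 11 after 6, 24, 48 and 72 h, and those that fell were 5, 11, 10 and 6 (limma, adjusted p under 0.05 over all probe sets). The shares called were 55.9%, 79.4%, 58.8% and 50% in that order, against 36.2%, 39.8%, 31.9% and 39.4% of all probe sets. Of all probe sets, 19.0%, 20.6%, 19.4% and 21.9% rose, and 17.2%, 19.2%, 12.5% and 17.6% fell. The listed genes were brighter than most, with a median log2 signal of 11.72 against 7.86 over all probe sets tested, and the part of signal level in these shares was not tested. Their median change was 0.08, 0.21, -0.02 and 0.04, beside 0.043, 0.038, 0.107 and 0.163 over all probe sets. With each array centred on its median, the counts became 11 higher and 12 lower at 24 h and 2 higher and 22 lower at 72 h, and with quantile normalization they became 14 and 5 (48 h). None of the 34 fell as far as CAT-A at 24 h, and the lowest was GLO3 at -1.44. CAT-A had been chosen on its low 24 h signal, so this is given for scale only.

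Of the 4 superoxide dismutases, which make hydrogen peroxide from superoxide, and their copper chaperone, 2 were higher and 2 lower at 24 h by the test, when CAT-A was lowest. SODCC2, of the copper and zinc class, fell at all times, by 0.48, 0.76, 0.67 and 0.55 (SE 0.05, limma adjusted p from 1.1e-07 to 9.1e-06). SODCC1 of the same class fell by 0.77 at 24 h (adjusted p = 3.3e-07). Of the 4 genes listed as glycolate oxidases, 2 fell and 1 rose at 24 h, and which of them act in photorespiration was not tested. GLO3 fell throughout, with changes of -0.64, -1.44, -1.24 and -1.35 (SE 0.05, highest adjusted p 2.1e-06). GLO4 fell by 0.79 at 24 h but rose by 0.42 at 48 h (SE 0.08, limma adjusted p = 5.4e-06 and 0.0015). GLO5 rose by 0.24 at 24 h (limma adjusted p = 0.012), a call that ended without the first control array (adjusted p = 0.091), without the first 24 h array (0.057), without the intensity trend (0.10) and with median centring (0.21). GLO1, on its brighter set, gave 0.095 ± 0.15 at 24 h and -0.051 ± 0.15 at 72 h and was not called at any time, although median centring called it lower at 72 h (-0.55). Its second set changed by -0.76, -0.40 and -2.13 at 6, 24 and 72 h (SE 0.09, limma adjusted p = 3.8e-05, 0.0042 and 9.5e-09). It was not called at 48 h. The sets of this gene were furthest apart at 72 h, on the arrays where some 5′ control sets were low. Their calls also differed at 6 and 24 h.

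Of the 7 ascorbate peroxidases, which remove hydrogen peroxide with ascorbate, 3 rose and 3 fell at 24 h, whereas 3 rose and none fell at 72 h. The 24 h fall of APX2 (-0.29, limma adjusted p = 0.00072) depends on the set taken. A set nearly as bright was called higher there (0.12, limma adjusted p = 0.021), and its dimmer sets were not called. APX1 rose at all times, by 0.56, 0.85, 0.68 and 0.89 (SE 0.04, highest limma adjusted p 4.2e-07). APX5 rose by 1.22 at 6 h (SE 0.13, adjusted p = 1.8e-05). Of the 5 genes that make or recycle ascorbate or glutathione, 4 rose and 1 fell at 24 h. Among these, MDAR5, a monodehydroascorbate reductase, rose by 1.05 at 6 h (SE 0.08, adjusted p = 5.9e-07), and OsGME1, a GDP-mannose epimerase of ascorbate synthesis, rose by 0.64 at 24 h (SE 0.04, adjusted p = 2.1e-07). OsGME2 rose by 0.76 at 6 h (SE 0.09, limma adjusted p = 3.0e-05).

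Of the 7 genes for peroxiredoxins and their partners, 5 rose and none fell at 6 h, whereas 2 rose with 1 falling at 24 h. BAS1, a 2-Cys peroxiredoxin, rose by 1.19 at 6 h and by 0.35 at 24 h (SE 0.06, limma adjusted p = 3.0e-08 and 0.00053). NTRC, the thioredoxin reductase that reduces it in chloroplasts, rose by 1.24 at 24 h (SE 0.10, adjusted p = 6.8e-07). The respiratory burst oxidase rbohB, which makes superoxide at the cell membrane, fell by 0.57 at 24 h but was 0.79 higher at 48 h (SE 0.20, adjusted p = 0.043 and 0.011). Neither rbohB call was firm, since the limma adjusted p at 24 h was 0.083 and 0.18 without the first or second control array and 0.38 without the first 24 h array, where the change was -0.19. It also rose above 0.05 at 24 h when any single 6 or 48 h array was left out (0.061). At 48 h it was 0.07 without the first control array and 0.083 without the second 48 h array.

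Both measured PEX11 genes, whose products help peroxisomes to divide, were called at 24 h. PEX11-1 fell at all times, by 0.60, 0.20, 0.49 and 0.23 (SE 0.04, highest adjusted p 0.0033), and PEX11-4 rose by 0.31 at 24 h but fell by 0.71 at 48 h (SE 0.10, limma adjusted p = 0.024 and 0.00015). With quantile normalization the PEX11-1 change was -0.049 at 24 h and -0.048 at 72 h, and neither was called. The 24 h call of PEX11-4 ended without either control array (limma adjusted p = 0.076 and 0.10), without the first 24 h array (0.22, change 0.14) and with median centring (0.19). LSD1 and its relatives LOL1 and LOL3 were listed because LSD1 is known in Arabidopsis to bind catalases. All 3 rose at 24 h, LSD1 by 1.27, LOL1 by 0.67 and LOL3 by 0.68 (highest limma adjusted p 0.00013), and none was called at 72 h, although LSD1 and LOL3 were called lower there with median centring (-0.52 and -0.44) and LOL1 was called higher in some alternative fits. The dimmest of the 3 measured LSD1 sets was called higher at 72 h, by 0.57 (SE 0.14, limma adjusted p = 0.0084). LSD1 had also risen by 1.003 at 6 h (SE 0.08, adjusted p = 8.5e-07), when CAT-A was at 85.3% of the control.

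**Figure D5:**
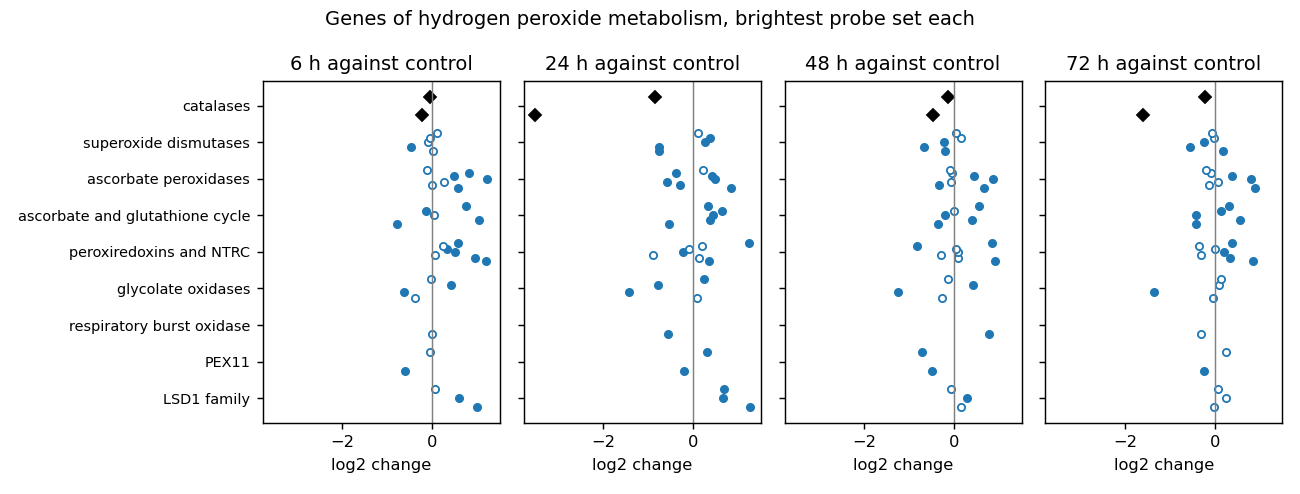
Log2 change from control of the 34 measured genes of hydrogen peroxide metabolism, in rows by role, at each time (each gene at its brightest probe set, with vertical offsets only to separate points). Filled points passed limma at an adjusted p of 0.05 and open points did not. Black diamonds are CAT-A and CAT-B, shown without a test. At 24 h CAT-A, which had been chosen on its low signal at that time, lies at -3.53, below all other points.

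The makeup of the seedlings was followed by 12 shoot and 10 root marker genes, none of which was at 0, since the labels give the tissue only as seedlings. In such bulk samples, fewer cells of a type and less RNA per cell cannot be told apart. The summed signal of the shoot markers was 92348 to 93254 in the control, 101628 to 102730 (6 h), 79117 to 80085 (24 h), 79132 to 82691 (48 h) and 73346 to 74574 (72 h). CAB2R carried most or all of the lower shoot sums at 24, 48 and 72 h. It read 37179 and 37973 in the control, 4012 and 4038 (24 h), 28186 and 25251 (48 h), and 18764 and 19920 (72 h). Without it, in a sum chosen after its values were seen, the other 11 shoot markers gave 54375 to 56076 in the control and 69461 to 70744 (6 h). Their later sums were 75079 to 76072 (24 h), 53881 to 54505 (48 h) and 54582 to 54654 (72 h). At 24 h 7 shoot markers rose and 4 fell, with a median change of 0.69. PSB28, a photosystem II assembly protein, rose by 1.75 (SE 0.08, limma adjusted p = 9.2e-09) while CAB2R fell by 3.22 (SE 0.05, adjusted p = 9.1e-13).

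The summed signal of the root markers was 51166 to 52492 in the control, 43847 to 45974 (6 h), 35657 to 37243 (24 h), 51164 to 53214 (48 h) and 61637 to 62088 (72 h). At 24 h 2 root markers rose and 3 fell, with a median change of 0.40. The nitrate transporter NRT2.3 rose by 1.77 (SE 0.20, limma adjusted p = 1.9e-05), and the silicon channel LSI1, named after its values were seen, fell by 1.26 (SE 0.04, adjusted p = 6.0e-10). LSI1 read 20794 and 21309 in the control and 9107 and 8480 at 24 h, and without it the root sum was 30373 to 31183 in the control and 27176 to 28137 at 24 h. The part of tissue makeup in the catalase values was not tested.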

How the data were processed

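Signal intensities, 1 per probe set and array, were deposited by the authors on a linear scale, made with GCOS and MAS5 per the submitters' processing notes, with versions not given in the sources used here. Each array had been scaled, since the mean without the top and bottom 2% was 500.1 throughout. Per the labels' protocols, 8 µg of TRIzol-extracted total RNA was labelled per array. Intensities were taken to log2 without an offset, and probe sets with a mean above the 40th percentile (log2 4.579, signal 23.9) were kept, 34355 of 57258 that are not controls. limma 3.58.1 (R 4.3.3) was fitted over all 10 arrays with 1 mean per group and eBayes with an intensity trend (5 residual and 6.5 prior degrees of freedom), and p-values were adjusted by Benjamini-Hochberg over all tested probe sets. The procedure was tested on simulated data. Per comparison, called means an adjusted p under 0.05.

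Probe sets were named from the platform annotation, updated by gene ID through a RefSeq table of 39387 genes, in which all 17905 IDs were found. There were 22436 probe sets with 1 gene and 95 with several, which were not named. Of 147 list entries, 68 matched 1 gene, 74 none and 5 several. A gene was taken at its brightest probe set. Named in the text are genes of the listed groups with the largest called change at a time, all members of groups of 4 or fewer, and the 5 genes most correlated with each catalase. The rule also names CHLI, whose signals lay near the filter level, and CASP1, and neither is described. The members and all lists were chosen with earlier results of these data known. Replicates are labelled biological, but the sources used here do not give the plants per sample. Alternatives were another offset, filter, scaling, variance prior, probe set rule, 2-group fits, a replicate block and leaving out arrays. Sequences and positions of the probe sets were not used here.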

Additional observations from a re-analysis of the deposited data

Results flagged for a closer look

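The named genes in this section entered by rule, with called changes against the shared control on opposite sides of 0 at different times. The difference between those times also had to pass limma at an adjusted p under 0.05, and the largest such difference per gene is given. The adjusted p-values of these differences were therefore under 0.05 by selection and are no separate support. CAT-B set c changed by -0.33 at 24 h and 0.93 at 48 h, a difference of 1.26 that was not tested. The 24 h arrays of this set lay below the control arrays and the 48 h arrays above them.

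Between 24 and 48 h, GLO4 differed by 1.21 (adjusted p = 1.9e-07), rbohB by 1.36 (adjusted p = 0.00021), PEX11-4 by -1.01 (adjusted p = 5.1e-06) and the pyruvate phosphate dikinase gene PPDKB by -1.71 (adjusted p = 2.5e-08). Between 24 and 72 h, SODCC1 differed by 0.95 (adjusted p = 5.9e-08) and the metal transporter gene OsNRAMP5 by 1.11 (adjusted p = 6.7e-09). Between 6 and 24 h, OsGME1 differed by 0.78 (adjusted p = 4.7e-08) and NRT2.3 by 2.43 (adjusted p = 1.3e-06).

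For 7 of these 8 genes, GLO4 being the exception, 1 or both changes against the control were not called under some alternatives. Those of rbohB and PEX11-4 were given beside their changes. With median centring SODCC1 at 72 h was -0.32 (limma adjusted p = 0.00049), the same direction as at 24 h, and its call there was lost without the first control array (0.15) and without either 72 h array (0.057 and 0.11). The 24 h fall of OsNRAMP5 was lost without the second control array (limma adjusted p = 0.075), in the 2-group fit (0.067) and without the intensity trend (0.073). The 24 h rise of PPDKB was lost without the second control array (limma adjusted p = 0.059), with median centring (0.079) and without the trend (0.058). The 6 h fall of OsGME1 was lost when either control or either 6 h array was left out (limma adjusted p from 0.073 to 0.12), with quantile normalization (0.31), with median centring (0.077) and without the trend (0.19). The 6 h fall of NRT2.3 was lost without the second control array (limma adjusted p = 0.13) and without the second 6 h array (0.15).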

How the results depend on the processing

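The CAT-A change kept its direction under every alternative run. Of its 63 alternative values, 54 moved by less than the array spread. Leaving out 1 of the 2 arrays of a group cannot move its mean further, so most of the 54 could not do otherwise. The 9 that moved further came from quantile normalization, median centring and the mean of all probe sets of the gene. With quantile normalization CAT-A was -0.15, -3.435, -0.24 and -1.50 at 6, 24, 48 and 72 h, and CAT-B was 0.12, -0.64, 0.22 and -0.015. Under median centring of each array, CAT-A was -3.63 at 24 h and -2.10 at 72 h, and CAT-B -0.087, -0.94 and -0.73 at 6, 24 and 72 h. This centring moved the median of all probe sets at 72 h from 0.163 to -0.336 and the calls there from 7515 higher and 6035 lower to 1835 and 12699. At 24 h it gave 5556 higher and 7439 lower. As the mean of all probe sets of the gene, CAT-A was -3.84, -0.40 and -1.82 at 24, 48 and 72 h, and CAT-B -0.51, -0.66, 0.064 and -0.80 at the 4 times. Median centring also turned, at 72 h, GLO5 to -0.36, OsGME2 to -0.18, SODCC1 to -0.32, GLO4 to -0.42, LOL3 to -0.44, NTRC to -0.11 and OsGME1 to -0.35, and CAT-B set c to -0.11. Quantile normalization turned SODCC1 at 48 h to 0.16, CAB2R at 6 h to 0.20 and at 48 h to 0.053, and CAT-B set b at 72 h to 0.033. The 24 h change of CAT-B set e became -0.034 with median centring and ranged from -0.18 (without control replicate 2) to 0.31 when single arrays were left out, with -0.027 without the second 24 h array. The cause of these shifts was not tested. Of 76 called results of named genes, 49 passed under every alternative and 27 were lost under at least 1. Same-numbered arrays did not deviate together (r = -0.009 to 0.017 over 10 pairs), so the numbers were not taken to pair them, and a replicate block gave 12274, 13520, 10819 and 13385 called probe sets against 12432, 13673, 10960 and 13550, and 19, 27, 19 and 17 hydrogen peroxide genes. The fit without the 72 h arrays, chosen after seeing the data, gave the same 24 h changes, -3.53 for CAT-A and -0.84 for CAT-B. Each group has its own mean in the fit, so these values could not differ and are no check.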
